A study of Mus musculus with 12 samples.

Results

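The mitochondrial ribosomal protein genes are the nuclear genes for the proteins of the ribosome inside mitochondria. They were taken as every symbol of the count table made of Mrpl or Mrps, a number and at most 1 further letter, which left out pseudogenes. This gave 78 of 53819 symbols, 49 named for the large subunit (Mrpl) and 29 for the small subunit (Mrps). Of these, 73 passed the filter on low counts, 46 of the large and 27 of the small subunit, among 13852 genes that passed in all. The libraries came from mouse E14 embryonic stem cells, a standard pluripotent line, kept in flat culture. There were 3 libraries from each of 4 groups: cells given L-proline together with budesonide for 72 h, cells given L-proline alone for 72 h, cells given budesonide alone for 72 h, and untreated cells. Proline is an amino acid that moves such cells towards a primed state, and budesonide is a glucocorticoid drug. Doses are not stated in the labels, and no time is recorded for the untreated cells. E14 is 1 cell line, so the results describe that line.

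The mitochondrial ribosome makes the few respiratory-chain and ATP synthase subunits that the mitochondrial genome encodes. Its RNAs come from that genome, whereas all of its proteins are encoded in the nucleus, made on cytosolic ribosomes and imported. Some of the proteins have bacterial counterparts and others are found only in mitochondria. Embryonic stem cells are known for small, simple mitochondria and for a strong use of glycolysis.

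Libraries held 5.30 to 15.9 M counts (M for mega) from a 3′ end kit that yields about 1 fragment per transcript. Levels are therefore given in CPM, counts scaled by the TMM-adjusted library totals, and were not divided by length. The share of tested genes with 0 counts was 8.43% in budesonide library 3 and 6.57% in untreated library 3, against 1.39 to 5.77% in the other 10. An earlier analysis of these data had found this pair to stand apart, so counts of called members are also given without it. All 8 stem cell markers were measured, and they summed to 2692 to 2845 CPM in cells given both compounds, 2621 to 3056 CPM with proline, 2348 to 2628 CPM with budesonide and 2733 to 3493 CPM in untreated cells. Within that sum markers moved in opposite directions: with both compounds against proline Esrrb, Nanog and Zfp42 rose by 1.52, 1.33 and 1.10 on the log2 scale, while Tdgf1 and Utf1 changed by -0.80 and -0.85. With proline against untreated Esrrb, Nanog and Zfp42 changed by -1.66, -0.97 and -1.36, and with budesonide against untreated Tdgf1 and Utf1 by -0.93 and -0.55. The 7 primitive endoderm markers summed to 86.7 to 100 CPM with both compounds, 49.8 to 59 CPM with proline, 97.9 to 118 CPM with budesonide and 93.8 to 115 CPM in untreated cells. Lama1 was the largest part of this sum, with means of 74.1, 29.4, 94.6 and 93.1 CPM in the same order. Every other marker of this list averaged at most 13 CPM. With proline against untreated 5 of the 7 lay above 0 and 2 below, with a median log2 change of 1.47. The 8 feeder fibroblast markers summed to at most 22.1 CPM, with Postn and Lum at 0 in every library. The 7 trophoblast markers summed to 65.7 to 70.3 CPM with both compounds, 19.3 to 34 CPM with proline, 67 to 77.2 CPM with budesonide and 26.2 to 37.7 CPM in untreated cells. Krt18, Ascl2 and Krt8 were the largest parts of this sum with budesonide, at means of 33.8, 18.5 and 13.8 CPM. With budesonide against untreated 4 of the 6 tested trophoblast markers lay above 0 and 2 below. Eomes averaged 1.21 against 3.36 CPM there, and Cdx2 0.937 against 1.07 CPM. The part of these marker lists in the results was not tested. Rn18s, the nuclear small-subunit rRNA, took 4.51 ± 1.40% of counts with both compounds, 2.88 ± 0.515% with proline, 4.36 ± 2.22% with budesonide and 2.55 ± 0.301% in untreated cells (SD, n = 3 each). Mitochondrially encoded genes took 7.95% of counts with both compounds, 5.62% with proline, 7.71% with budesonide and 7.58% in untreated cells. Nothing in the labels says that the 3 libraries of a group were separate cultures, so p-values measure only the spread between libraries, which may be technical.

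Promoters of members are shown here because most members had lower levels in cells given budesonide. RefSeq promoters (GRCm38.p6, 250 bases before to 50 after a gene's start) were matched by symbol for 69 members, as 75 promoters, and compared with all 32851 promoters in that table. The letters CCGGAAG, a core that ETS factors such as GABP are known to bind, stood on either strand in 34.7% of the members' promoters and in 8.86% of all promoters. The NRF1 motif (GCGCA, any base, then GCGC) stood in 17.3% and 4.60%, and the YY1 motif AAGATGGC in 16% and 2.75%. The E-box CACGTG, read by Myc proteins, stood in 9.33% and 7.15%. The TATA letters TATAAA were in 6.67% of the members' promoters and in 13.6% of all. Of 31 ETS matches in the members' promoters, 28 began within 100 bases before to 50 bases after the start. None of these motifs contains another. Median GC content was 58.7% in the members' promoters and 52.7% in all. All promoters stand for 27025 genes, more than the 13852 tested, and were not matched to the members for level or GC content. The ETS letters were in 32% of 25 promoters of members called lower with budesonide against untreated or with both compounds against proline. They were in 34.8% of 46 promoters of other tested members. Those others include Mrpl45, which was called lower only with both compounds against untreated and whose promoter holds NRF1 matches. For the NRF1 motif these shares were 12% and 21.7%, and for the YY1 motif 20% and 15.2%. For the E-box they were 8% and 10.9%, and for the TATA letters 8% and 6.52%. A match describes letters only and is not a shown binding site.

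These 6 promoters are printed 5′ to 3′ along the gene's own strand, with motif matches in capitals. Mrpl12, Mrpl18, Mrpl51, Mrpl52 and Mrps16 are 5 of the 9 members called lower in all 3 comparisons with budesonide, as were 1.01% of all tested genes, and Mrps24 is the member called higher with proline. Of the other 4 of those 9 members, Mrpl39 held an NRF1 match, Mrpl16 a TATA match, and Mrpl47 none of these letters in the window, and Mrpl13 was not matched. Mrpl12 lies at chr11:120484387-120484686 on the plus strand and its capitals mark an NRF1 match on the opposite strand. Mrpl18 lies at chr17:12916042-12916341 on the minus strand, with 1 ETS match far upstream, at -240 to -234 from the start. Mrpl51 lies at chr6:125191950-125192249 on the plus strand, with 1 ETS match at -90 to -84. Mrpl52 lies at chr14:54426659-54426958 on the plus strand and Mrps16 at chr14:20393441-20393740 on the minus strand, each with 2 ETS matches on the opposite strand, and a second Mrps16 promoter in the table held none. Mrps24 lies at chr11:5707652-5707951 on the minus strand, with a TATA match on the opposite strand far upstream and a YY1 match just after the start.
Mrpl12: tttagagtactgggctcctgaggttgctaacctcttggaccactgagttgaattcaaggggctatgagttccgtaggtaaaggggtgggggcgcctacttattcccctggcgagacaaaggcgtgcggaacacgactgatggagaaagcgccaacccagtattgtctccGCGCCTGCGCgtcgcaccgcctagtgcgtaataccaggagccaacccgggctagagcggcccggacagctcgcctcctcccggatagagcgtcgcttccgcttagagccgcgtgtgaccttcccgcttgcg
Mrpl18: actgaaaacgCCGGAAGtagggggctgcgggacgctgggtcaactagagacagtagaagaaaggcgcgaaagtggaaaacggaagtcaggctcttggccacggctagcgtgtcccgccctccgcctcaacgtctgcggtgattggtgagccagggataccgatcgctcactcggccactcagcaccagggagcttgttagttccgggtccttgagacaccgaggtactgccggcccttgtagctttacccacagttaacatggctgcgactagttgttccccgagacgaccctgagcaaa
Mrpl51: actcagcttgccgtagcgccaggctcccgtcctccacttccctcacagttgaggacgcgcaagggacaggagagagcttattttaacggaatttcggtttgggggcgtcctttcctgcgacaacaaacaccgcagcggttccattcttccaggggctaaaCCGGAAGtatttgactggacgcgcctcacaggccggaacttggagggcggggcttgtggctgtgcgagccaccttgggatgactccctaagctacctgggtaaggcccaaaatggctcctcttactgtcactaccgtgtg
Mrpl52: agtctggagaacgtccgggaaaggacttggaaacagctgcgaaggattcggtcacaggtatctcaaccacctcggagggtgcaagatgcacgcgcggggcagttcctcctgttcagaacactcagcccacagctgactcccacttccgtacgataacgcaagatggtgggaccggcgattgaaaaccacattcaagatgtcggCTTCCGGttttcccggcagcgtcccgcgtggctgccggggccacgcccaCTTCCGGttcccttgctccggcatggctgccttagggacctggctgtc
Mrps16: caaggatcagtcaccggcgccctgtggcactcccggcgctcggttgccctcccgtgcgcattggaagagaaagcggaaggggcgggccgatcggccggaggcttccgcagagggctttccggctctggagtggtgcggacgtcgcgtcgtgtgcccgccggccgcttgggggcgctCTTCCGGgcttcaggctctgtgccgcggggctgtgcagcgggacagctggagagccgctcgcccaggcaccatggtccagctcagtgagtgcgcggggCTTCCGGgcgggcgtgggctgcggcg
Mrps24: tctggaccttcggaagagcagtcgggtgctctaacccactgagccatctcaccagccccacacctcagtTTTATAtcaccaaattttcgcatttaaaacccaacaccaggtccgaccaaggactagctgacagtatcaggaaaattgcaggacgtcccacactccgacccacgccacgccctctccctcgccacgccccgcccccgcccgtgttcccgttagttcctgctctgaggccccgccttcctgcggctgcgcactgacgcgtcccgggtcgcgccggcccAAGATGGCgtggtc

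All 73 tested members had counts in every library. Mean levels over the 12 libraries ran from 17.2 to 332 CPM in the large subunit (median 106) and from 1.78 to 346 CPM in the small subunit (median 77.8). Mrps5, a protein near the mRNA entrance of the small subunit, was highest in this mean over the 4 groups at 346 CPM, followed by Mrpl15 at 332, Mrpl18 at 329 and Mrpl34 at 319 CPM. The order differed between groups, since Mrps5 averaged 395 CPM with proline and 321 CPM in untreated cells, where Mrpl18 averaged 413 and 418 CPM. In the small subunit Mrps16 at 142 and Mrps12, which lines the decoding centre, at 128 CPM came next after Mrps5. The 5 highest members held 20.4% of the summed level, and 34 members exceeded 100 CPM. Lowest in the large subunit were Mrpl48 at 17.2, Mrpl9 at 18.0 and Mrpl10 at 30.9 CPM. Lowest in the small subunit were Mrps36 at 1.78, Mrps33 at 11.4 and Mrps21 at 20.2 CPM. When the members were ordered by mean level, the libraries' ranges, which pool the 4 groups, overlapped for every pair of neighbours. Within libraries, 1 of the 72 pairs kept its order in all 12, with Mrps33 above Mrps36.

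A few members need a remark on their names or their counting. Mrps18a and Mrps30 carry small-subunit names but sit in the large subunit of known structures, and they averaged 44.4 and 114 CPM. Mrps36, the lowest member inside the filter, is known as a part of the 2-oxoglutarate dehydrogenase complex rather than of the ribosome. Of the Mrps18 trio, which share 1 bacterial counterpart, Mrps18a and Mrps18c (76.8 CPM) were well expressed, while Mrps18b averaged 0.606 CPM and was not tested. Mrpl24 (1.22 CPM) and Mrpl23 (0.569 CPM) were also outside the filter. Mrpl53 and Mrps34 had 0 counts in all 12 libraries, which allows up to 0.578 CPM in the smallest library and 0.196 CPM in the largest (3 counts each). In the GENCODE M21 annotation (GRCm38), the last 500 exonic bases of Mrpl24, Mrpl53, Mrps18b, Mrps34 and Mrps25 lie wholly within exons of another gene, and 13 of the 78 members share some of those bases. In each of the comparisons of budesonide without and with proline, 4 of the 20 members called lower are among the 13. Whether counting used strand, and how shared reads were treated, is not given in the sources used here, so these levels are uncertain. Mrpl48 has a copy, Mrpl48-ps, that received 15 to 70 counts per library, and Mrpl23-ps1 received 11 to 77.

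The summed level of both subunits was lower in cells given budesonide, without and with proline. The 46 large-subunit members summed to 4619, 4707 and 4936 CPM in cells given both compounds, 6388, 6326 and 6115 CPM with proline, 4647, 4600 and 4636 CPM with budesonide, and 5836, 5840 and 6460 CPM in untreated cells. All 6 libraries with budesonide lay below all 6 without it. The 27 small-subunit members summed to 2159, 2136 and 2302 CPM with both compounds, 2695, 2709 and 2655 CPM with proline, 1996, 2020 and 1938 CPM with budesonide, and 2348, 2383 and 2577 CPM in untreated cells. Here too no library with budesonide reached the lowest library without it. The large-subunit sum changed by -23.4% with budesonide alone against untreated and by -24.3% with both compounds against proline, and the small-subunit sum by -18.5% and -18.1%. With both compounds against untreated cells the changes were -21.4% for the large and -9.72% for the small subunit. Proline alone against untreated gave 3.82% for the large subunit, with overlapping libraries, and 10.3% for the small subunit, with none overlapping. The ratio of the large to the small sum was 2.16 ± 0.0358 with both compounds, 2.34 ± 0.0336 with proline, 2.33 ± 0.0576 with budesonide and 2.48 ± 0.0285 in untreated cells (SD, n = 3 each). These sums are descriptions and carry no test. In bulk libraries, fewer cells that express a gene and less RNA per cell cannot be told apart.

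**Figure D1:**
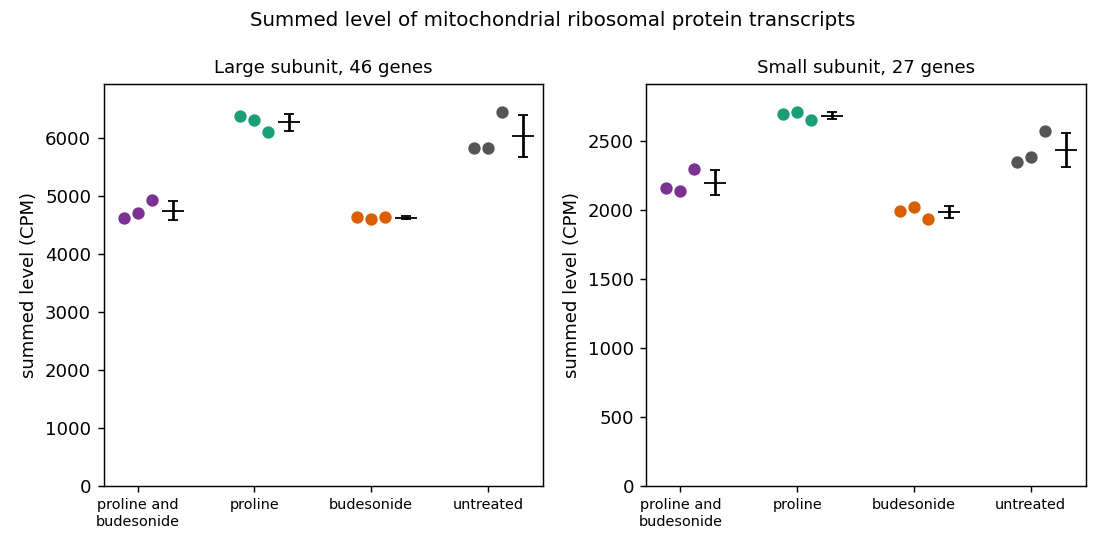
Summed CPM of the tested large-subunit (left) and small-subunit (right) members in each of the 12 libraries, with the group mean ± SD beside the points (n = 3). The libraries with budesonide sit at 4600 to 4936 CPM on the left and 1938 to 2302 CPM on the right, below every library without it.

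Budesonide alone was compared with untreated cells, which gives the response to the steroid without added proline. Of the 73 tested members 20 fell and none rose (edgeR quasi-likelihood test, Benjamini-Hochberg adjusted p below 0.05 over 13852 genes). That is 27.4% of the members, against 4% of all tested genes called lower, 2.51% called higher, and 6.5% called lower among genes in the members' own range of levels (34.3 to 201 CPM). No member above 0 had an unadjusted p below 0.05, and DESeq2 called 25 lower and 0 higher. In the large subunit 15 of 46 fell, and in the small subunit 5 of 27. The median log2 change was -0.34 in each subunit and 0.01 over all tested genes. In all, 60 members had a log2 change below 0, and in 35 all 3 budesonide libraries lay below all 3 untreated ones, which held for 12.2% of all tested genes.

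**Figure D2:**
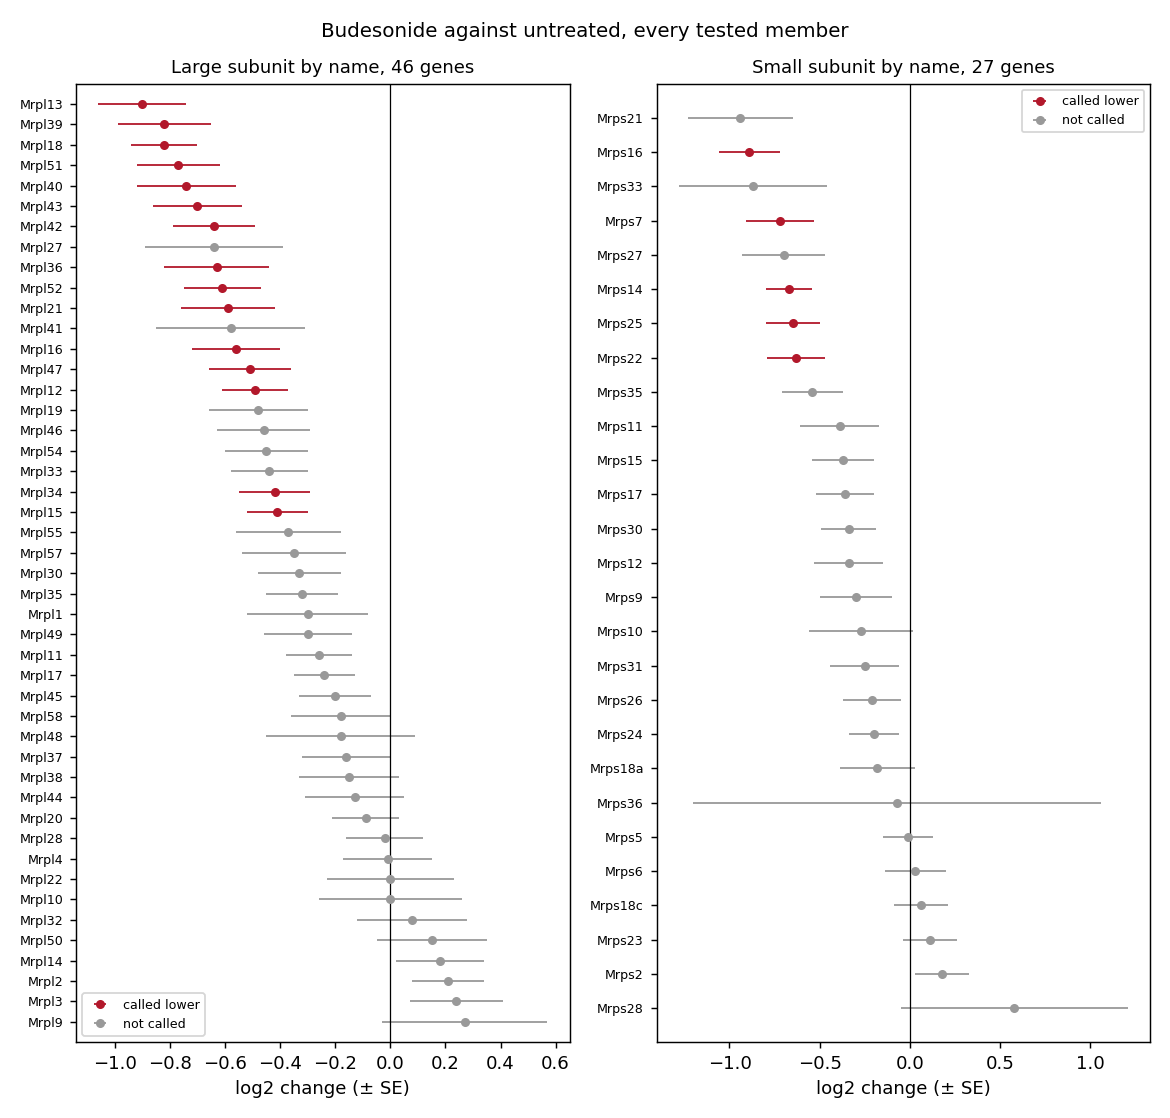
Log2 change with budesonide against untreated cells for each tested member, with its standard error (SE), large subunit left and small subunit right, ordered from the most negative at the top. The 20 members called lower (red) range from -0.41 (Mrpl15) to -0.90 (Mrpl13), and no member above 0 was called.

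Mrpl18, a protein of the central protuberance of the large subunit, had 278, 229 and 207 CPM with budesonide, against 405, 393 and 458 CPM in untreated cells. The groups did not overlap, and the log2 change was -0.82 ± 0.12 (SE, edgeR adjusted p = 0.000261). Mrpl13, the counterpart of a bacterial protein that joins the large subunit early in assembly, had 58.9, 81.1 and 62.2 CPM with budesonide, against 133, 124 and 121 CPM in untreated cells. Its libraries were likewise apart, with a log2 change of -0.90 ± 0.16 (edgeR adjusted p = 0.000909). Mrpl39, a protein found only in mitochondrial ribosomes, had 104, 81.7 and 83.2 CPM with budesonide, against 172, 184 and 119 CPM in untreated cells. The lowest untreated library still lay above the highest with budesonide (log2 change -0.82 ± 0.17, edgeR adjusted p = 0.00401). Mrpl51, also found only in mitochondria, had 90.7, 80.3 and 99.7 CPM with budesonide, against 144, 143 and 176 CPM in untreated cells. Its log2 change was -0.77 ± 0.15 (edgeR adjusted p = 0.00286), and 87 of the last 500 bases of its transcript also belong to Mir3098. Mrpl52 (-0.61 ± 0.14, adjusted p = 0.00788) and Mrpl43 (-0.70 ± 0.16, adjusted p = 0.00808) completed the 6 large-subunit members with the smallest p by edgeR.

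Of the small subunit, Mrps16, a counterpart of a bacterial protein of the subunit's body, had 102, 119 and 69.0 CPM with budesonide, against 158, 176 and 200 CPM in untreated cells. Budesonide libraries spread widely here but stayed below all untreated ones (log2 change -0.89 ± 0.17, edgeR adjusted p = 0.00221). Mrps14, a protein of the head of the subunit, had 99.4, 82.8 and 90.9 CPM with budesonide, against 144, 139 and 153 CPM in untreated cells (log2 change -0.67 ± 0.13, edgeR adjusted p = 0.00314). Mrps7, whose bacterial counterpart binds the rRNA of the head, changed by -0.72 ± 0.19 (edgeR adjusted p = 0.0250), and the mitochondria-specific Mrps25 and Mrps22 by -0.65 ± 0.15 and -0.63 ± 0.16 (edgeR adjusted p = 0.0109 and 0.0182). Mrps25 shares its whole 3′ window with Nr2c2 on the other strand, so its count may include reads of that gene. Mrps21 had the most negative value of the small subunit, -0.94 ± 0.29, and missed the threshold (edgeR adjusted p = 0.0510). Mrps5 had 267, 355 and 338 CPM with budesonide, against 272, 322 and 369 CPM in untreated cells, and the groups overlapped (log2 change -0.01 ± 0.14).

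Named beyond the rule and so chosen with their values known, the other members that fell with budesonide were Mrpl12, Mrpl15, Mrpl16, Mrpl21, Mrpl34, Mrpl36, Mrpl40, Mrpl42 and Mrpl47. In the large subunit 9 of 28 members with bacterial counterparts and 6 of 18 members found only in mitochondria fell. In the small subunit the counts were 3 of 16 and 2 of 8. The count of 20 was 11 without untreated library 3, 12 without untreated library 2, and 10 without the pair that stood apart. It was 13 with scaling to total counts, 11 in a fit of the 6 libraries compared, and 9 with offsets for transcript length and GC content. No member was called higher in any of these. Over all tested genes, lower calls went from 554 to 412, 386 and 364 without those libraries, in the same order. They were 349, 301 and 389 in the other settings, in the same order. Scaling to total counts moved the median of all genes to 0.10 and the members' median to -0.25, and the share of lower calls among all called genes to 40.5%, against 61.4% with TMM.

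Not all members were lower with budesonide. The 13 members above 0 included, named after their values were seen, the large-subunit members Mrpl2, Mrpl3, Mrpl9, Mrpl14, Mrpl32 and Mrpl50 and the small-subunit members Mrps2, Mrps6, Mrps18c, Mrps23 and Mrps28. Mrpl2 and Mrpl3, counterparts of proteins at the bacterial peptidyl transferase centre, had log2 changes of 0.21 ± 0.13 and 0.24 ± 0.17. Mrpl2 had 149, 160 and 149 CPM with budesonide, against 123, 143 and 129 CPM in untreated cells, with the budesonide libraries all higher but the change not called (edgeR adjusted p = 0.415). The low Mrpl9 gave 0.27 ± 0.30. Mrps2, a counterpart of a bacterial protein that joins the small subunit late, had 105, 112 and 117 CPM with budesonide, against 92.9, 106 and 96.4 CPM in untreated cells, which overlapped (0.18 ± 0.15). Of the members with small-subunit names that sit in the large subunit, Mrps30 had a log2 value of -0.34 ± 0.15 and Mrps18a of -0.18 ± 0.21. Mrps18c had 0.06 ± 0.15, and none of the 3 was called. The decoding-centre protein Mrps12 gave -0.34 ± 0.19, and the low members Mrps33, Mrpl48 and Mrpl10 gave -0.87 ± 0.41, -0.18 ± 0.27 and 0.00 ± 0.26, also not called. Mrps36 at its level of 1.78 CPM had a change of -0.07 ± 1.13, so that even a large change would not have been detectable at this depth.

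The change with budesonide also varied with transcript length over all tested genes. Among genes with transcripts up to 1 kb the median log2 change was -0.10, from 1 to 2 kb -0.07, from 2 to 4 kb 0.04, and over 4 kb 0.13. The members' medians in the same classes were -0.33 (29 members), -0.40 (24), -0.32 (15) and -0.48 (5). The members' median was thus below that of all genes in each class, though the longest class holds only 5 members. With both compounds against proline the members' medians were -0.36, -0.36, -0.27 and -0.45, and those of all genes -0.06, -0.07, 0.03 and 0.16.

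**Figure D3:**
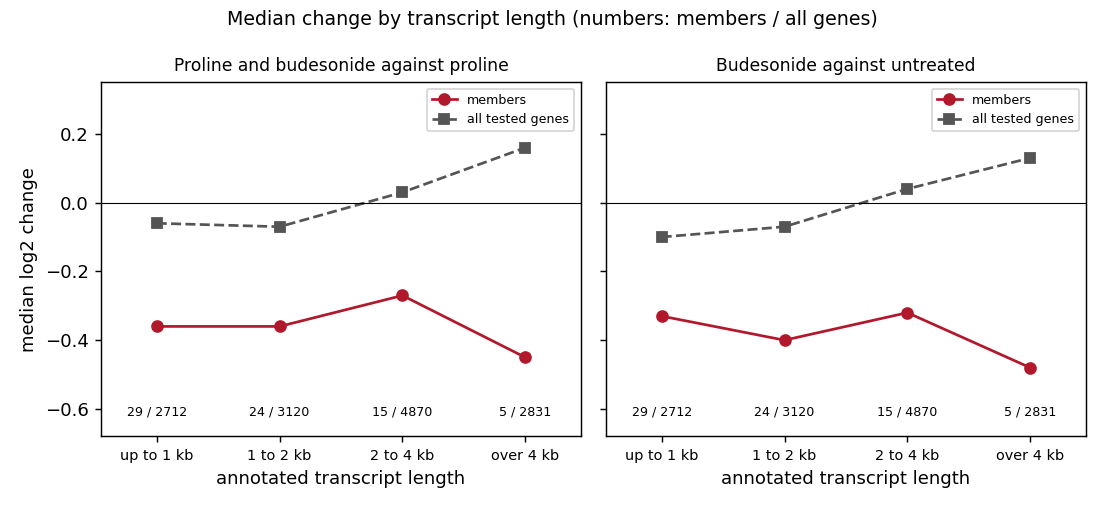
Median log2 change of the members (red circles) and of all tested genes (grey squares) by annotated transcript length, for both compounds against proline (left) and budesonide against untreated cells (right). The members' medians lie between -0.27 and -0.48 in every class, and those of all genes between -0.10 and 0.16.

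Both compounds together were compared with proline alone, which gives the response to budesonide in proline-treated cells from 6 other libraries. Again 20 of 73 members fell and none rose by the edgeR test, against 4.27% of all tested genes called lower, 5.83% called higher, and 8.04% called lower among genes in the members' range of levels. Above 0, Mrpl14 had an unadjusted p below 0.05 (log2 change 0.48 ± 0.16, edgeR adjusted p = 0.0648), and DESeq2 called 23 members lower and 1 higher. The edgeR calls comprised 18 of 46 large-subunit and 2 of 27 small-subunit members. Median log2 changes were -0.36 and -0.34 in the large and small subunit and 0.02 over all tested genes. In 41 members all 3 libraries with both compounds lay below all 3 with proline, which held for 15.6% of all tested genes, and 67 members had a value below 0.

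Mrpl18 had 228, 234 and 283 CPM with both compounds, against 397, 424 and 417 CPM with proline. The groups did not overlap (log2 change -0.73 ± 0.12, edgeR adjusted p = 0.000345). Mrpl34, the short counterpart of a bacterial large-subunit protein, had 265, 295 and 229 CPM with both compounds, against 470, 355 and 421 CPM with proline (-0.66 ± 0.13, edgeR adjusted p = 0.00119). Mrpl12, which forms the stalk that recruits translation factors and is also known to bind the mitochondrial RNA polymerase, had 214, 205 and 207 CPM with both compounds, against 284, 303 and 313 CPM with proline. The 3 libraries with both compounds lay close together and below all with proline (-0.52 ± 0.12, edgeR adjusted p = 0.00429). Mrpl46, a mitochondria-specific protein of the central protuberance, had 60.4, 51.2 and 53.0 CPM with both compounds, against 89.6, 88.2 and 99.6 CPM with proline (-0.75 ± 0.17, edgeR adjusted p = 0.00449). Mrpl35 had 118, 111 and 121 CPM with both compounds, against 182, 170 and 176 CPM with proline (-0.59 ± 0.13, edgeR adjusted p = 0.00523). Neither of these last members overlapped between the groups. Mrpl55 changed by -0.82 ± 0.19 (edgeR adjusted p = 0.00718), with 29.7, 46.5 and 39.5 CPM with both compounds and 68.4, 68.8 and 67.7 CPM with proline.

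The 2 small-subunit members that fell were Mrps25, with 84.3, 76.9 and 88.8 CPM with both compounds against 131, 133 and 144 CPM with proline, and Mrps16. Mrps25 changed by -0.71 ± 0.15 and Mrps16 by -0.59 ± 0.17 (edgeR adjusted p = 0.00333 and 0.0251). Named beyond the rule, the other large-subunit members that fell were Mrpl11, at the base of the stalk, and Mrpl13, Mrpl15, Mrpl16, Mrpl19, Mrpl30, Mrpl37, Mrpl39, Mrpl40, Mrpl47, Mrpl51 and Mrpl52. The count of 20 was 9 without library 1 and 11 without library 2 of the cells given both compounds, and 10 without proline library 2. Without untreated library 3 and budesonide library 3 it was 25. Over all tested genes, lower calls went from 591 to 304, 324, 396 and 922 in these settings, in the same order.

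The comparisons of budesonide without and with proline share no library. Both were tested in 1 fit of all 12 libraries, with 1 spread per gene, so their calls are not independent. Of the 73 members 13 fell in both comparisons, against 233 of 13852 tested genes (1.68%), and 27 members fell in at least 1. Those 13 are 65% of each list of 20 members, while the 233 come from lists of 554 and 591 genes. Over the 73 members the log2 changes had Pearson's r = 0.652 and Spearman's rho = 0.655, a description across genes that were scaled by the same library totals. In 58 members both values were below 0, and in 4 both were above. The interaction term, which tests whether the budesonide response differed with proline, called no member, against 0.469% of all tested genes in either direction. By edgeR 3 of 73 members had an unadjusted p below 0.05 in it, against 1198 of 13852 tested genes, and DESeq2 called no member. The smaller number of small-subunit calls with proline, 2 against 5 without, is therefore not shown to be a difference.

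**Figure D4:**
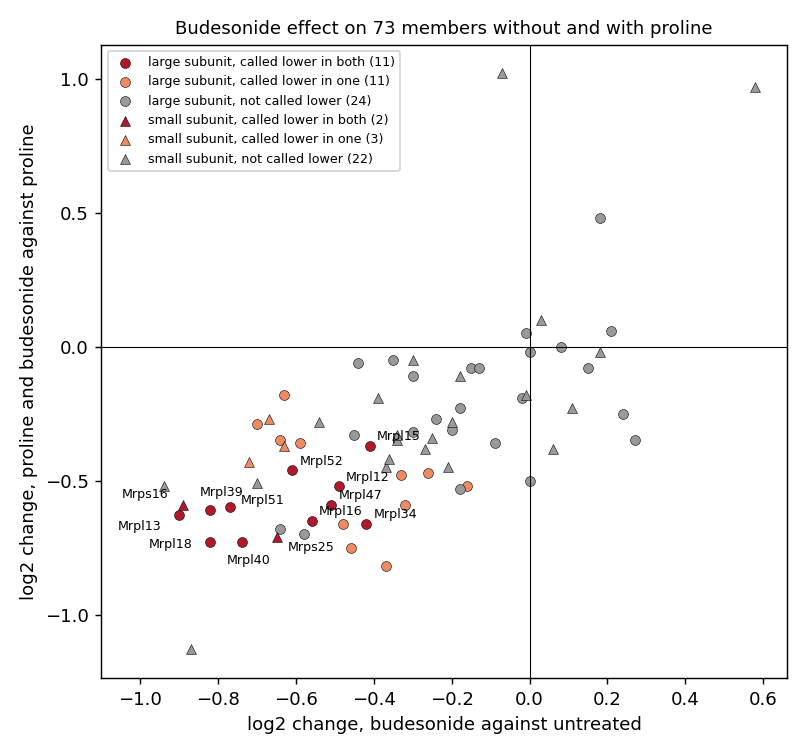
Log2 change of each of 73 members with both compounds against proline (vertical) and with budesonide against untreated cells (horizontal), circles for the large and triangles for the small subunit. The 13 labelled members in dark red were called lower in both comparisons, and most points lie in the lower left part.

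Across the 4 groups, all 6 libraries with budesonide lay below all 6 libraries without it in 22 of 73 members, against 3.17% of all tested genes, and above them in 0 of 73 members, against 2.95%. These 22 are a description without a test. They included Mrpl18, Mrpl12, Mrpl13, Mrpl39, Mrpl51, Mrps14, Mrps16, Mrps22 and Mrps25. Mrps14 had 109, 90.2 and 97.1 CPM with both compounds and 120, 119 and 118 CPM with proline, apart but not called (log2 change -0.27 ± 0.13, edgeR adjusted p = 0.231). Its untreated libraries, at 139 to 153 CPM, lay above those with proline.

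**Figure D5:**
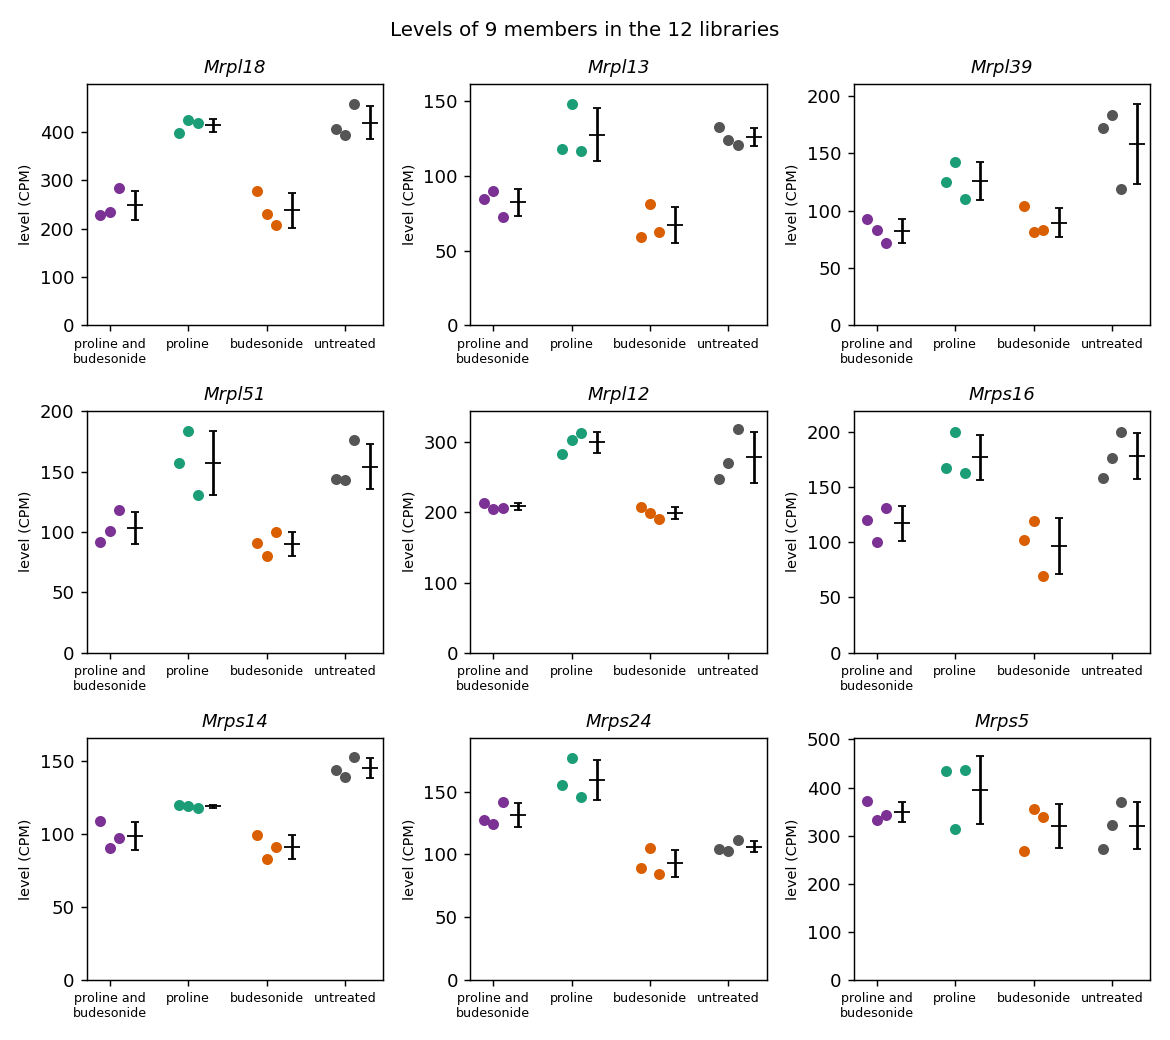
Levels in CPM of 9 members in the 12 libraries, with the group mean ± SD beside the points (n = 3). In Mrpl18, Mrpl13, Mrpl39, Mrpl51, Mrpl12, Mrps16 and Mrps14 the 6 libraries with budesonide lie below the 6 without it, while Mrps24 is highest with proline and Mrps5 overlaps between groups.

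Both compounds together against untreated cells gave 17 members that fell and none that rose by the edgeR test, 13 large and 4 small, against 3.83% of all tested genes called lower and 3.34% called higher. Above 0, 1 member had an unadjusted p below 0.05, and DESeq2 called 22 lower and 0 higher. The median log2 change was -0.31 in the large subunit, -0.14 in the small subunit and 0.01 over all tested genes. In 27 members all 3 libraries with both compounds lay below all 3 untreated ones, as in 14% of all tested genes. Mrpl39 had 92.6, 83.3 and 71.6 CPM with both compounds, against 172, 184 and 119 CPM in untreated cells, a log2 change of -0.94 ± 0.17 (edgeR adjusted p = 0.00108). Mrpl18 changed by -0.75 ± 0.12 (adjusted p = 0.00045), Mrpl52 by -0.57 ± 0.14 (0.0116), Mrpl16 by -0.66 ± 0.16 (0.0144), Mrpl13 by -0.61 ± 0.16 (0.0170) and Mrpl47 by -0.57 ± 0.15 (0.0174), with edgeR's adjusted p in brackets. In the small subunit Mrps14, Mrps22, Mrps16 and Mrps7 fell, with log2 changes of -0.56, -0.61, -0.61 and -0.64 (edgeR adjusted p = 0.0115, 0.0220, 0.0291 and 0.0454). Named beyond the rule, Mrpl12, Mrpl19, Mrpl35, Mrpl45, Mrpl46, Mrpl51 and Mrpl55 also fell. Mrpl45 anchors the ribosome near the inner membrane at the exit tunnel. Untreated cells serve in this comparison and in that of budesonide alone, so their calls are not independent. Mrpl12, Mrpl13, Mrpl16, Mrpl18, Mrpl39, Mrpl47, Mrpl51, Mrpl52 and Mrps16 fell in all 3 comparisons, against 1.01% of all tested genes. The count of 17 was 4 without library 1 and 5 without library 2 of the cells given both compounds, 6 without untreated library 3, 11 without untreated library 2, and 10 without the pair that stood apart. Over all tested genes, lower calls went from 531 to 284, 284, 379, 377 and 501 in these settings, in the same order.

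Proline alone against untreated cells called 1 member higher and none lower, against 3.17% of all tested genes called higher and 4.71% called lower. By edgeR's unadjusted p below 0.05 there were 6 members above 0 and 1 below. These are 7 of 73 members, against 2671 of 13852 tested genes in either direction. DESeq2 called 1 member higher and 0 lower. Mrps24, the mitochondrial counterpart of a bacterial protein at the mRNA entrance, had 155, 177 and 146 CPM with proline, against 104, 103 and 111 CPM in untreated cells. The groups did not overlap, and it rose by 0.59 ± 0.14 on the log2 scale (edgeR adjusted p = 0.00750). With both compounds it had 127, 124 and 142 CPM and with budesonide alone 89.0, 105 and 84.0 CPM, a log2 difference of 0.50 ± 0.14 that missed the threshold (edgeR adjusted p = 0.0688). Median log2 changes with proline were 0.05 in the large subunit, 0.12 in the small subunit and -0.01 over all tested genes. Without untreated library 3 and budesonide library 3 together, 3 members were called higher and 1 lower.

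Both compounds against budesonide alone called 1 member higher and none lower, against 0.874% of all tested genes called higher and 0.592% called lower. By edgeR's unadjusted p below 0.05 there were 5 members above 0 and 0 below. These are 5 of 73 members, against 1810 of 13852 tested genes in either direction. DESeq2 called 3 members higher and 0 lower. Mrps21, counterpart of a short bacterial small-subunit protein, had 18.8, 24.9 and 20.4 CPM with both compounds, against 9.36, 10.8 and 9.22 CPM with budesonide. The groups were apart, with a log2 change of 1.12 ± 0.29 (edgeR adjusted p = 0.0482). This call held in 3 of 20 alternative settings, and over all 20 its adjusted p ran from 0.0116 to 0.203. With proline alone the gene had 30.4, 37.9 and 23.6 CPM and in untreated cells 23.9, 18.9 and 13.7 CPM, so the budesonide libraries were the lowest of all. Median log2 changes were 0.00 in the large and 0.13 in the small subunit.

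Mrps28, a small-subunit protein, was chosen after its values were seen because its libraries spread widely within groups. It had 62.0, 61.8 and 46.8 CPM with both compounds, 15.4, 59.5 and 13.1 CPM with proline, 53.7, 7.44 and 63.0 CPM with budesonide, and 53.0, 26.4 and 3.86 CPM in untreated cells. High and low libraries occurred within each of the last 3 groups, and no comparison called it.

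Partners of the members were read from lists of mitochondrial translation genes. Of 4 small-subunit proteins under other names (Aurkaip1, Chchd1, Dap3, Ptcd3), Aurkaip1 fell in all 3 comparisons with budesonide and the others in none. Aurkaip1 had 178, 178 and 179 CPM with both compounds, 290, 260 and 248 CPM with proline, 194, 192 and 173 CPM with budesonide, and 240, 236 and 282 CPM in untreated cells. Its log2 changes were -0.58 ± 0.12 with both compounds against proline, -0.44 ± 0.12 with budesonide against untreated and -0.50 ± 0.12 with both against untreated (edgeR adjusted p = 0.00211, 0.0232 and 0.00909). The call with budesonide against untreated held in 14 of 20 alternatives and not without the pair that stood apart, and the other two held in all 20. Gadd45gip1, a large-subunit protein, was called in none. Of 14 tested translation factors 2 (14.3%) fell in each of these comparisons and none rose. Over all tested genes 4.27% were called lower with both against proline, 4% with budesonide against untreated and 3.83% with both against untreated. Lrpprc, which stabilises mitochondrial mRNAs, fell in each, with 149, 168 and 190 CPM with both compounds, 257, 258 and 218 CPM with proline, 186, 170 and 136 CPM with budesonide, and 233, 251 and 310 CPM in untreated cells. Its log2 changes were -0.53 ± 0.14 with both compounds against proline, -0.69 ± 0.14 with budesonide against untreated and -0.64 ± 0.14 with both against untreated (edgeR adjusted p = 0.0182, 0.00411 and 0.00628), and these calls held in 16, 19 and 19 of the 20 alternatives, the second being lost without the pair. The second factor was Mtfmt, which formylates the initiator tRNA, with both compounds against proline (-1.23 ± 0.32, edgeR adjusted p = 0.0147). It was Mrrf, the ribosome recycling factor, with budesonide against untreated (-1.34 ± 0.33, edgeR adjusted p = 0.0157), and the initiation factor Mtif2 with both against untreated (-1.14 ± 0.27, edgeR adjusted p = 0.00941). The call of Mrrf held in 15 of 20 alternatives, with log2 changes of -1.76 to -0.64 and adjusted p up to 0.312 over all 20, and was lost in a fit of only the libraries compared, without untreated library 3, without budesonide library 1 or 3, and without the pair. The calls of Mtfmt and Mtif2 held in 17 and 19.

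Of 27 tested genes for ribosome assembly and rRNA modification, only Malsu1, a factor for late assembly of the large subunit, was called in these 3 comparisons, lower with both compounds against proline (-0.54 ± 0.16, edgeR adjusted p = 0.0356, held in 16 of 20 alternatives). This 1 call is 3.7% of the list, against 4.27% of all tested genes called lower in that comparison. The list's medians lay between -0.12 and -0.04 in these 3 comparisons. None of 14 tested genes for mitochondrial transcription, RNA processing and replication was called. The small-subunit rRNA mt-Rnr1 fell with budesonide against untreated (-0.51 ± 0.12, edgeR adjusted p = 0.0106), with both against untreated (-0.44 ± 0.12, edgeR adjusted p = 0.0268) and with proline against untreated (-0.43 ± 0.12, edgeR adjusted p = 0.0282), the last reversing to 0.08 with offsets for length and GC content. These calls held in 19, 16 and 15 of the 20 alternatives. The large-subunit rRNA mt-Rnr2 was called in none. Because the kit is for polyadenylated RNA, counts of these 2 rRNAs may not measure their amounts.

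Of 10 tested regulators of mitochondrial biogenesis, Mycn, a Myc-family activator of growth genes, was called in 3 comparisons. It had 158, 167 and 186 CPM with both compounds, 328, 312 and 338 CPM with proline, 112, 118 and 141 CPM with budesonide, and 165, 165 and 175 CPM in untreated cells. The proline libraries were the highest and the budesonide libraries the lowest. Its log2 changes were -0.94 ± 0.12 with both compounds against proline, 0.95 ± 0.12 with proline against untreated and -0.45 ± 0.12 with budesonide against untreated (edgeR adjusted p = 1.72e-05, 1.27e-05 and 0.0272). The first pair of calls held in all 20 alternatives and the third in 12, being lost with total counts, with the libraries compared alone, with the offsets and without any 1 of budesonide libraries 1 and 2 or untreated libraries 1, 2 and 3. Yy1 fell with both compounds against proline (-0.45 ± 0.12, edgeR adjusted p = 0.0193, held in 17 of 20 alternatives). Nrf1, Gabpa (the DNA-binding part of GABP), Esrra, Ppargc1b and Myc were called in none of the 6 comparisons. Ppargc1a was outside the filter, at 0 counts in 10 of 12 libraries.

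The 82 tested protein genes of the cytosolic ribosome, a separate ribosome, were set beside the members. With budesonide against untreated 50 of them fell (61%), with a median log2 change of -0.48. That share was 27.4% in the members and 4% in all tested genes. With both compounds against proline 13 fell (15.9%, median -0.21), against 27.4% of the members and 4.27% of all tested genes. With both against untreated 12 fell (14.6%, median -0.17), against 23.3% of the members and 3.83% of all tested genes. With both compounds against budesonide 9 of the 82 rose (median 0.33), where 1 of 73 members and 0.874% of all tested genes rose. Members thus had medians of -0.34 to -0.36 in each subunit without and with proline, while the cytosolic list had -0.48 and -0.21. This contrast between the lists was not tested. The interaction term called none of the 82 cytosolic genes and no member, against 0.469% of all tested genes. Its median was 0.26 in the cytosolic list and -0.03 in the members. By edgeR 20 of the 82 had an unadjusted p below 0.05 in it, against 3 of 73 members and 1198 of 13852 tested genes.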

How the data were processed

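The authors deposited whole-number counts per gene symbol for 12 libraries. Per the labels' protocols, a 3′ end kit for polyadenylated RNA was used. Tools listed in the submitters' processing notes, without role or order, are featureCounts 2.0, STAR 2.7.5c, cutadapt 2.5, bcl2fastq and DESeq2, beside the build GRCm39. Neither annotation, nor strand setting, nor handling of multiply matching reads is given in the sources used here. A second deposited table of normalised values was not used.

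The test was run in edgeR 4.0.16 under R 4.3.3: filterByExpr (minimum count 10, total 15), TMM, the two-sided quasi-likelihood F test on all 12 libraries with 1 coefficient per group, and Benjamini-Hochberg adjustment over 13852 genes, called at an adjusted p below 0.05. Fold changes used a prior count of 0.125, and the SE is the log2 change over the square root of F. The procedure was also run on simulated data with 200 genes changed. Those changes were larger than in most called members, and the simulated spread was smaller than the median spread of the data. The simulation therefore does not show how well changes of the members' size are found. Any 2 libraries of a group differed beyond sampling noise (chi-square per degree of freedom 5.55 to 28.1).

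Members and lists were chosen with earlier results of these data known. The named members were, per comparison, direction and subunit, up to 6 called members by ascending p, the 3 highest and 3 lowest levels per subunit, the Mrps18 trio, Mrps30, Mrps36 and members near the filter. Of the other lists, up to 4 called genes each were named, with the mitochondrial rRNAs and the main regulators in any case. Transcript lengths came from GENCODE M21 (97.7% of tested genes) and promoters from RefSeq (GRCm38.p6). Floors of 3 counts cover counting error only. The alternatives were DESeq2 1.42.0, other scalings, no filter, only the libraries compared, a replicate block, offsets for length and GC content, and libraries left out.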

Additional observations from a re-analysis of the deposited data

How the results depend on the processing

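Of 59 calls of members over the comparisons, 15 held under all 20 alternatives run and none changed direction. They were Mrpl13, Mrpl18, Mrpl39, Mrpl51, Mrps14 and Mrps16 with budesonide against untreated, Mrpl12, Mrpl18, Mrpl34, Mrpl35, Mrpl46 and Mrps25 with both compounds against proline, Mrpl18 and Mrpl39 with both against untreated, and Mrps24 with proline. DESeq2 kept all 59. A fit of only the libraries compared does not apply to the interaction, which needs every group. The count for budesonide against untreated was 13 with total counts, 11 with only the libraries compared, 9 with offsets for length and GC content, and 10 without untreated library 3 and budesonide library 3 together. That last setting gave 10 for both compounds against untreated and 4 for proline. For both compounds against budesonide the count was 0 with RLE scaling, total counts, only the libraries compared, the offsets and the pair left out, and 3 with DESeq2. Leaving out single libraries gave 11 to 20 for budesonide against untreated, 9 to 21 for both compounds against proline, 4 to 17 for both against untreated, 0 to 2 for both against budesonide, 1 in each case for proline and 0 for the interaction. Total counts put the lower share of calls over all genes at 63.7% for both against budesonide, against 40.4% with TMM. The change of mt-Rnr1 with proline reversed to 0.08 with the offsets (adjusted p = 0.815). The cause of these moves was not tested. Subunit medians stayed below 0 in each budesonide comparison under every alternative, at -0.42 to -0.25 (large) and -0.37 to -0.22 (small) with budesonide against untreated, -0.46 to -0.33 and -0.36 to -0.29 with both against proline, and -0.39 to -0.28 and -0.19 to -0.09 with both against untreated.

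Replicate numbers did not pair the libraries: over 18 pairs of groups and numbers, deviations correlated at -0.0767 to 0.0529. With the replicate number as a block, 17 members were called with budesonide against untreated, 17 with both compounds against proline, 15 with both against untreated, 1 with proline and 0 with both against budesonide.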
